A study of Mus musculus with 27 samples.

Results

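The 44 genes described here encode the transporters, enzymes and accessory proteins of mitochondrial and peroxisomal fatty acid oxidation. They were taken by symbol from a list of the pathway that was chosen with earlier results of these data known. All 44 were found among the 19392 genes of the expression table. Of these members, 18 were placed in mitochondria, 18 in peroxisomes, and 8 in both organelles or elsewhere in the cell. The table came from RNA-Seq of the left kidneys of 27 C57BL/6 mice, 3 mice at each of 9 ischemia times. In every mouse the right kidney was excised and the left kidney was harvested 24 h later. The left renal pedicle was clamped for 16, 18, 20, 22, 24, 26, 28 or 30 min, and the 0 min mice (sham) were not subjected to ischemia but, by the protocol in the labels, had lost the right kidney too. The question was how renal injury changes with the length of warm ischemia.

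Fatty acids enter mitochondria as carnitine esters and are shortened there by cycles of dehydrogenation, hydration, a further dehydrogenation and thiolysis, with electrons passed to the respiratory chain through the electron transfer flavoprotein. Peroxisomes shorten very long-chain, branched and dicarboxylic fatty acids, and their first step is an oxidase that makes hydrogen peroxide. The proximal tubule, which is rich in both organelles, takes much of its energy from fatty acids, and many of these genes are known targets of the nuclear receptor PPAR alpha.

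Values are given as FPKM, which corrects for transcript length. Fold changes are differences on the log2(FPKM + 1) scale from limma, fitted to the 18188 genes with a value over 0 in 3 kidneys or more, and all 44 members were tested. A member is said to have risen or fallen at a Benjamini-Hochberg adjusted p under 0.05 over all genes tested, and DEGs also had an absolute log2 fold change above 1. The comparisons with 0 min share the same 3 sham kidneys.

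Several kidneys stood apart. The 16 min replicate 3 had a summed level of 6 tubular injury markers of 1263 FPKM, within the 793 to 1795 FPKM of the 0 min kidneys, whereas the other 16 min kidneys had 8632 and 11506. The highest of the sham sums was that of 0 min replicate 3. Havcr1, 1 of these markers, was at 35.1 FPKM in 16 min replicate 3, above the sham kidneys at 2.81, 2.49 and 22.0 FPKM. Lcn2, another, was at 31.4 FPKM there and at 11.5, 9.39 and 63.6 FPKM in the sham kidneys. The summed level of 9 adipocyte markers was 237 FPKM in 18 min replicate 1, 67.8 in 20 min replicate 1, 181 in 22 min replicate 3 and 20.7 in 30 min replicate 1, and at most 13.4 in the other kidneys. The 6 loop and distal tubule markers summed to 2415 FPKM in 30 min replicate 3 and to 641 and 660 in the other 30 min kidneys. The 4 Y-linked genes in the table were above 0 in all 27 kidneys, and no 2 kidneys had identical values.

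In the sham kidneys the members ranged from Slc27a2 at 1646 ± 77.0 FPKM (SD, n = 3), a fatty acid transport protein and very long-chain acyl-CoA synthetase, to the peroxisomal thioesterase Acot3 at 13.1 ± 2.39 FPKM. Next to Slc27a2 came Acadm, the medium-chain acyl-CoA dehydrogenase, at 552 ± 11.4 FPKM and the dienoyl-CoA isomerase Ech1 at 386 ± 5.10 FPKM. Etfb at 376 ± 13.4, Pecr at 360.4 ± 24.9 and Phyh at 359.5 ± 10.7 FPKM followed and did not differ beyond their spread. The 44 members summed to 7788 ± 252 FPKM in the sham kidneys and to 5443 ± 18.2 FPKM after 26 min. The sum was 3991 ± 99.8 FPKM after 28 min and 3648 ± 466 FPKM after 30 min. The mean sum of the mitochondrial members at 30 min was 61.1% of that at 0 min, and that of the peroxisomal members was 40.8%.

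At 16 min 19 of 44 fell and 0 rose, where 9.61% of all genes tested fell. The numbers that fell at 18, 20, 22, 24 and 26 min were 21, 17, 26, 26 and 26, where the shares of all genes that fell were 15.2%, 12.1%, 15.4%, 14.8% and 15.2%. At 28 min 34 members fell, against 23.6% of all genes. At 30 min 31 fell, against 25.4% of all genes, and 2 rose, against 26.9%. In whole kidney tissue, fewer cells of a type and less RNA per cell cannot be told apart. The 12 proximal tubule markers, each above 0 in every kidney, summed to 5784 to 6937 FPKM in the sham kidneys and 3898 to 6509 after 26 min. After 28 min the sum was 1897 to 2192 FPKM, and after 30 min 1216 to 1327. Against 0 min 4 of these 12 markers fell and 1 rose at 16 min, with a median log2 fold change of -0.32, 5 fell at 26 min, with a median of -0.30, and 9 fell at 28 min, with a median of -1.67. At 30 min 11 fell, with a median of -2.46. Of the 6 loop and distal tubule markers 0 fell at 16 min, 2 at 26 min, 6 at 28 min, with a median of -1.76, and 5 at 30 min. The part of these markers in the members' fall was not tested.

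The peroxisomal members had lower medians than the mitochondrial ones at each of the 8 times. The median log2 fold change against 0 min at 16 min was -0.23 over the mitochondrial, -0.38 over the peroxisomal and -0.39 over the other 8 members. In the same order the medians were -0.28, -0.45 and -0.48 after 26 min. They were -0.52, -0.88 and -1.12 after 28 min, and -0.53, -1.16 and -0.88 after 30 min. The median over all genes tested was 0 in these 4 comparisons. At 30 min 12 of 18 mitochondrial, 12 of 18 peroxisomal and 7 of 8 other members fell, where 25.4% of all genes fell. The share was the same in both organelles, with medians as given above. Among the members that fell, 3 mitochondrial, 9 peroxisomal and 3 other members were DEGs, together 15 of 44. Of all genes 5.59% were DEGs with lower levels. Members are not replicates, and the difference between compartments was not tested.

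**Figure D1:**
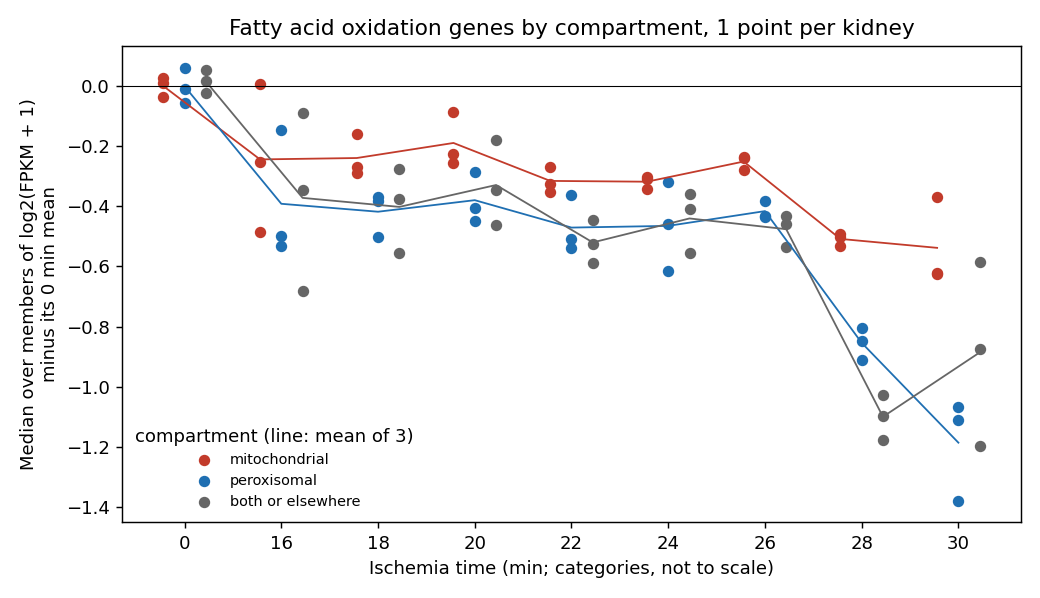
Median over the members of each compartment of log2(FPKM + 1) minus its 0 min mean, with ischemia time in min on the x axis. Each point is 1 kidney and each line joins the means of 3 kidneys. The lines lie below 0 from 16 min, with 16 min replicate 3 the highest kidney of its group, and the peroxisomal points drop below -0.8 at 28 and 30 min.

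Of the 3 carnitine shuttle members 0 fell and 2 rose at 30 min, where 26.9% of all genes rose. Cpt1a, which forms acylcarnitines at the outer mitochondrial membrane and is the controlled step of entry, was at 98.5, 104 and 89.2 FPKM in the sham kidneys. It was between 76.7 and 103 FPKM, median 83.5, in the 18 kidneys of 16 to 26 min, then 108, 87.3 and 93.1 FPKM at 28 min and 126, 132 and 138 FPKM at 30 min. All 3 kidneys of 30 min were above every other kidney. Cpt1a rose by a log2 fold change of 0.51 ± 0.12 (SE) against 0 min (limma, adjusted p = 0.00103) and by 0.55 ± 0.12 against 28 min (limma, adjusted p = 0.00501). Slc25a20, the carnitine-acylcarnitine carrier of the inner membrane, was at 33.8, 37.2 and 36.2 FPKM at 0 min, between 31.8 and 46.4 FPKM, median 37.3, at 16 to 26 min, at 48.8, 39.8 and 47.5 FPKM at 28 min and at 49.1, 54.4 and 44.2 FPKM at 30 min. The 28 and 30 min kidneys were all above the sham kidneys, and Slc25a20 rose at 30 min by 0.41 ± 0.10 (limma, adjusted p = 0.00221). Cpt2, which regenerates acyl-CoA inside, had a log2 fold change of -0.13 ± 0.14 at 30 min (limma, adjusted p = 0.471).

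Among the 5 acyl-CoA dehydrogenases, which carry out the first step of each mitochondrial cycle, 3 fell at 30 min, where 25.4% of all genes fell. Acadm was at 563, 551 and 541 FPKM at 0 min, between 209.9 and 391 FPKM, median 264, at 16 to 26 min, at 124, 131 and 139 FPKM at 28 min and at 112, 117 and 95.6 FPKM at 30 min. The sham kidneys, the 18 kidneys of 16 to 26 min and the 28 and 30 min kidneys formed 3 ranges that did not overlap. Acadm fell by 0.98 ± 0.16 on the log2 scale at 16 min (limma, adjusted p = 0.000367), fell by 1.43 ± 0.16 at 26 min (limma, adjusted p = 4.21e-06) and fell by 2.45 ± 0.16 at 30 min (limma, adjusted p = 2.34e-10). Acad10 was at 24.6, 24.6 and 23.9 FPKM at 0 min, between 14.1 and 21.1 FPKM, median 16.7, at 16 to 26 min, at 10.4, 10.8 and 10.8 FPKM at 28 min and at 7.81, 10.2 and 6.87 FPKM at 30 min, and fell by 1.56 ± 0.13 at 30 min (limma, adjusted p = 4.44e-09). The ranges again did not overlap between these 3 sets of kidneys. Of the 50-base stretches of its transcripts 20.2% also occur in Acad12, so reads could be split between the pair. Acads, for short chains, fell by 0.49 ± 0.06 at 30 min (limma, adjusted p = 1.77e-06). The enzymes for longer chains, Acadvl and Acadl, had log2 fold changes of -0.02 ± 0.09 and 0.02 ± 0.08 (limma, adjusted p = 0.857 and 0.871).

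Downstream of the dehydrogenases, 4 of the 5 enzymes of hydration, dehydrogenation and thiolysis fell at 30 min, where 25.4% of all genes fell. Echs1, the short-chain enoyl-CoA hydratase, was at 135, 134 and 140.0 FPKM at 0 min, between 92.3 and 127 FPKM, median 102, at 16 to 26 min, at 74.4, 77.2 and 72.2 FPKM at 28 min and at 65.4, 70.9 and 53.7 FPKM at 30 min, and fell by 1.08 ± 0.10 (limma, adjusted p = 1.27e-08). Every ischemic kidney was below the sham kidneys. Hadh, the 3-hydroxyacyl-CoA dehydrogenase, was at 313, 294 and 266 FPKM at 0 min, between 207 and 292 FPKM, median 247, at 16 to 26 min, at 154, 162 and 172 FPKM at 28 min and at 131, 157 and 123 FPKM at 30 min, and fell by 0.98 ± 0.11 (limma, adjusted p = 3.22e-07). Its sham range overlapped that of 16 to 26 min but not that of 28 and 30 min. The thiolase Acaa2 had a log2 fold change of 0.06 ± 0.17 at 30 min (limma, adjusted p = 0.82).

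Hadha and Hadhb encode the 2 subunits of the mitochondrial trifunctional protein and lie head to head. Their RefSeq starts on chromosome 5 (GRCm38.p6) are 30154980 for Hadha, on the minus strand, and 30155253 for Hadhb, on the plus strand, with 272 bases between them. The 85 bases that lie outside both genes in RefSeq and in GENCODE vM21, chr5:30155163-30155247, are shown on the plus strand because both genes start beside them; their G and C content was 69.4%.
Hadha-Hadhb: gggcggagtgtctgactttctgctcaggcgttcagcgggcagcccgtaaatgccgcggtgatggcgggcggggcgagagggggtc
Hadha was at 119, 124 and 118 FPKM at 0 min and at 95.4, 90.5 and 109 FPKM at 30 min, and fell by 0.23 ± 0.09 (limma, adjusted p = 0.0385). Hadhb was at 128, 142 and 134 FPKM at 0 min and at 76.4, 76.3 and 77.5 FPKM at 30 min, and fell by 0.75 ± 0.09 (limma, adjusted p = 1.27e-06). At 16 min the same 2 genes had log2 fold changes of -0.08 ± 0.09 (limma, adjusted p = 0.632) and -0.40 ± 0.09 (limma, adjusted p = 0.00574). The log2 ratio of Hadhb to Hadha FPKM was 0.16 ± 0.048 (SD, n = 3) at 0 min and -0.354 ± 0.127 at 30 min, and neither the ratio nor either gene overlapped between them. A two-sided exact permutation test of the ratio gave p = 0.1, which is the lowest p possible with 3 kidneys in each group. The same permutation test gave p = 0.1 for 16 against 0 min and p = 0.4 for 28 against 26 min. Both genes were chosen after their values were seen, so these tests cannot decide whether the ratio changed. Of the 50-base stretches of Hadhb 57.5% also occur in the genes Gm13910 and Gm9108, against 0% for Hadha, so the Hadhb level is less certain.

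The 3 members that take electrons from the dehydrogenases all fell at 30 min, where 25.4% of all genes fell. Etfb, the beta subunit of the electron transfer flavoprotein, was at 381, 361 and 387 FPKM at 0 min, between 293 and 407 FPKM, median 374, at 16 to 26 min, at 280.2, 263 and 293 FPKM at 28 min and at 254, 248 and 190.4 FPKM at 30 min. Its range at 16 to 26 min overlapped that of sham, those of 28 and 30 min did not, and it fell by 0.69 ± 0.08 at 30 min (limma, adjusted p = 7.13e-07). Of its 50-base stretches 57.7% also occur in Gm45233. The alpha subunit Etfa fell by 0.81 ± 0.10 (limma, adjusted p = 1.77e-06), and Etfdh, which passes the electrons on to ubiquinone, fell by 0.57 ± 0.13 (limma, adjusted p = 0.000978). Eci1 and Decr1, which handle the double bonds of unsaturated chains, fell by 0.49 ± 0.12 (limma, adjusted p = 0.00206) and 0.63 ± 0.12 (limma, adjusted p = 0.000241).

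The 3 peroxisomal oxidases among the members all fell at 30 min, with a median log2 fold change of -2.97, where 25.4% of all genes fell. Hao2, which oxidizes 2-hydroxy fatty acids, was at 230.0, 235 and 188 FPKM at 0 min, between 53.9 and 132 FPKM, median 92.9, at 16 to 26 min, at 31.9, 27.9 and 30.5 FPKM at 28 min and at 21.8, 14.1 and 11.9 FPKM at 30 min. The sham, 16 to 26 min, 28 min and 30 min kidneys formed 4 ranges without overlap. Hao2 fell by 1.45 ± 0.23 at 16 min (limma, adjusted p = 0.000286), fell by 1.45 ± 0.23 at 26 min (limma, adjusted p = 0.000105) and fell by 3.71 ± 0.23 at 30 min (limma, adjusted p = 1.33e-10), the last of which is 13.1-fold lower. Acox2, the branched-chain acyl-CoA oxidase that also shortens bile acid precursors, was at 86.7, 62.7 and 69.0 FPKM at 0 min, between 32.2 and 65.4 FPKM, median 49.6, at 16 to 26 min, at 16.1, 19.4 and 16.5 FPKM at 28 min and at 7.88, 11.2 and 7.61 FPKM at 30 min, and fell by 2.97 ± 0.21 (limma, adjusted p = 8.56e-10). Of the 18 kidneys of 16 to 26 min, 1 reached the sham range, and 0 did at 28 or 30 min. Acox3, which acts on pristanoyl-CoA, fell by 1.66 ± 0.16 at 30 min (limma, adjusted p = 2.81e-08).

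Of the 5 bifunctional enzymes and thiolases, 3 fell at 30 min, where 25.4% of all genes fell. The parallel hydratase-dehydrogenases Ehhadh and Hsd17b4 differed. Ehhadh was at 321, 362 and 336 FPKM at 0 min, between 85.8 and 222 FPKM, median 135, at 16 to 26 min, at 61.7, 68.0 and 70.2 FPKM at 28 min and at 51.9, 125 and 82.5 FPKM at 30 min. Every ischemic kidney was below the sham kidneys, and the 30 min kidneys spread from under the 28 min kidneys into the range of 16 to 26 min. Ehhadh fell by 1.23 ± 0.26 at 16 min (limma, adjusted p = 0.00289) and fell by 2.06 ± 0.26 at 30 min (limma, adjusted p = 1.49e-06). Hsd17b4 was at 90.8, 93.5 and 90.2 FPKM at 0 min, between 82.3 and 105 FPKM, median 92.5, at 16 to 26 min, at 91.8, 90.3 and 87.7 FPKM at 28 min and at 76.3, 107 and 87.0 FPKM at 30 min, with a log2 fold change of -0.005 ± 0.10 at 30 min (limma, adjusted p = 0.985). Its 28 and 30 min kidneys overlapped with sham. The 26 min kidneys, at 94.3 to 104.5 FPKM, lay above the sham and the 28 min kidneys. At 26 min the log2 fold change of Hsd17b4 against 0 min was 0.096 ± 0.10 (limma, adjusted p = 0.526). Scp2, which carries a thiolase and a sterol carrier domain, fell by 1.35 ± 0.10 (limma, adjusted p = 2.38e-09), although 37.5% of its 50-base stretches also occur in Scp2-ps2. The thiolases Acaa1a and Acaa1b had log2 fold changes of -0.53 ± 0.08 (limma, adjusted p = 2.53e-05) and -0.31 ± 0.17 (limma, adjusted p = 0.126), and share 26.7% and 35.5% of their 50-base stretches with each other.

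Pecr, the peroxisomal trans-2-enoyl-CoA reductase, fell from 26 to 28 min and again from 28 to 30 min. It was at 356, 387 and 338 FPKM at 0 min, between 179 and 354 FPKM, median 283, at 16 to 26 min, at 67.3, 90.3 and 83.9 FPKM at 28 min and at 42.1, 30.0 and 26.4 FPKM at 30 min. At 16 min its groups overlapped with sham, and the log2 fold change was -0.37 ± 0.20 (limma, adjusted p = 0.201). By 26 min Pecr had already fallen by 0.71 ± 0.20 against 0 min (limma, adjusted p = 0.00935), and those groups did not overlap. At 30 min Pecr fell by 3.54 ± 0.20 (limma, adjusted p = 4.83e-11), which is 11.6-fold lower. The other reductase, Decr2, had a log2 fold change of -0.34 ± 0.14 at 30 min (limma, adjusted p = 0.06). Phyh, which starts alpha-oxidation of phytanic acid, was at 355, 372 and 352 FPKM at 0 min, between 223 and 342 FPKM, median 269.7, at 16 to 26 min, at 211, 220.0 and 210.4 FPKM at 28 min and at 189, 245 and 194 FPKM at 30 min, and fell by 0.74 ± 0.11 (limma, adjusted p = 1.03e-05). Every ischemic kidney was below sham for Phyh. Hacl1, the lyase of the same path, fell by 1.62 ± 0.21 (limma, adjusted p = 1.8e-06), with 51.9% of its 50-base stretches also in Gm49387.

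Crot, which makes carnitine esters of shortened chains for export from the peroxisome, fell by 0.80 ± 0.13 at 16 min (limma, adjusted p = 0.000381) and fell by 1.73 ± 0.13 at 30 min (limma, adjusted p = 1.66e-09). The thioesterases Acot3 and Acot4 fell by 1.58 ± 0.26 (limma, adjusted p = 3.78e-05) and 0.97 ± 0.12 (limma, adjusted p = 1.15e-06) at 30 min, and Acot8 had -0.23 ± 0.10 (limma, adjusted p = 0.0502). Of the 50-base stretches of Acot3 19.1% also occur in other genes, among them Gm49366, Acot5 and Acot1, against 4.74% for Acot4. Neither membrane member passed the test at 30 min. Abcd3, which imports acyl-CoA, was at 88.0, 86.2 and 80.6 FPKM at 0 min, between 73.6 and 102 FPKM, median 84.2, at 16 to 26 min, at 87.8, 75.5 and 75.8 FPKM at 28 min and at 78.9, 106 and 79.1 FPKM at 30 min, with overlapping groups and a log2 fold change of 0.06 ± 0.12 at 30 min (limma, adjusted p = 0.712). Pex11a, which takes part in peroxisome division, had -0.14 ± 0.12 (limma, adjusted p = 0.354).

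Among the members of both organelles or elsewhere, Slc27a2 was at 1704, 1675 and 1558 FPKM at 0 min, between 918 and 1275 FPKM, median 1101, at 16 to 26 min, at 626, 607 and 723 FPKM at 28 min and at 439, 541 and 379 FPKM at 30 min. The 4 sets of kidneys did not overlap, and Slc27a2 fell by 0.62 ± 0.10 at 16 min (limma, adjusted p = 0.000333) and fell by 1.95 ± 0.10 at 30 min (limma, adjusted p = 3.32e-11). Amacr, the racemase that prepares branched chains for oxidation, was at 194, 163 and 112 FPKM at 0 min, between 91.6 and 179.9 FPKM, median 138, at 16 to 26 min, at 39.6, 43.1 and 47.2 FPKM at 28 min and at 30.2, 27.8 and 19.1 FPKM at 30 min. The sham range held most kidneys of 16 to 26 min and no kidney of 28 or 30 min. Amacr had a log2 fold change of -0.04 ± 0.20 at 16 min (limma, adjusted p = 0.934) and fell by 2.53 ± 0.20 at 30 min (limma, adjusted p = 3.55e-09).

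Acad11, an acyl-CoA dehydrogenase of long and very long chains, was at 74.6, 72.8 and 75.8 FPKM at 0 min, between 48.1 and 69.7 FPKM, median 54.7, at 16 to 26 min, at 32.8, 34.6 and 34.7 FPKM at 28 min and at 28.8, 37.0 and 30.1 FPKM at 30 min, and fell by 1.25 ± 0.11 (limma, adjusted p = 1.11e-08). Ech1 was at 385, 392 and 382 FPKM at 0 min, between 269 and 396 FPKM, median 331, at 16 to 26 min, at 225, 243 and 246 FPKM at 28 min and at 187, 278 and 188 FPKM at 30 min, and fell by 0.84 ± 0.13 (limma, adjusted p = 2.18e-05). Acot12, a cytosolic acetyl-CoA thioesterase, was at 59.0, 61.4 and 54.5 FPKM at 0 min, between 35.0 and 53.8 FPKM, median 40.0, at 16 to 26 min, at 32.0, 27.4 and 30.9 FPKM at 28 min and at 23.5, 39.9 and 33.4 FPKM at 30 min, and fell by 0.91 ± 0.17 (limma, adjusted p = 0.000107). For Acad11 and Acot12 every ischemic kidney was below sham, and for Ech1 every kidney of 28 and 30 min was.

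Crat, the carnitine acetyltransferase, was at 66.5, 62.6 and 63.8 FPKM at 0 min, between 54.1 and 66.8 FPKM, median 61.3, at 16 to 26 min, at 49.7, 48.5 and 51.0 FPKM at 28 min and at 49.3, 60.3 and 52.9 FPKM at 30 min, and fell by 0.28 ± 0.08 (limma, adjusted p = 0.00456). Eci2, an enoyl-CoA isomerase, was at 67.8, 77.4 and 78.2 FPKM at 0 min, between 55.2 and 78.7 FPKM, median 62.0, at 16 to 26 min, at 61.6, 57.5 and 59.2 FPKM at 28 min and at 63.6, 78.6 and 74.8 FPKM at 30 min. Its 28 min kidneys lay below the sham and the 30 min kidneys, which overlapped. Eci2 fell by 0.39 ± 0.10 at 28 min (limma, adjusted p = 0.00446) and rose by 0.33 ± 0.10 from 28 to 30 min (limma, adjusted p = 0.0425), so that its log2 fold change at 30 min was -0.06 ± 0.10 (limma, adjusted p = 0.691). Acsl1, the long-chain acyl-CoA synthetase that activates fatty acids, was at 91.5, 93.5 and 100.4 FPKM at 0 min, at 40.5, 40.5 and 89.6 FPKM at 16 min, at 39.7, 39.5 and 47.5 FPKM at 28 min and at 51.5, 63.1 and 71.2 FPKM at 30 min. The 89.6 FPKM belonged to 16 min replicate 3, the kidney whose summed injury markers lay within the sham range. Acsl1 fell by 0.86 ± 0.21 at 16 min (limma, adjusted p = 0.00723) and fell by 0.61 ± 0.21 at 30 min (limma, adjusted p = 0.0191).

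**Figure D2:**
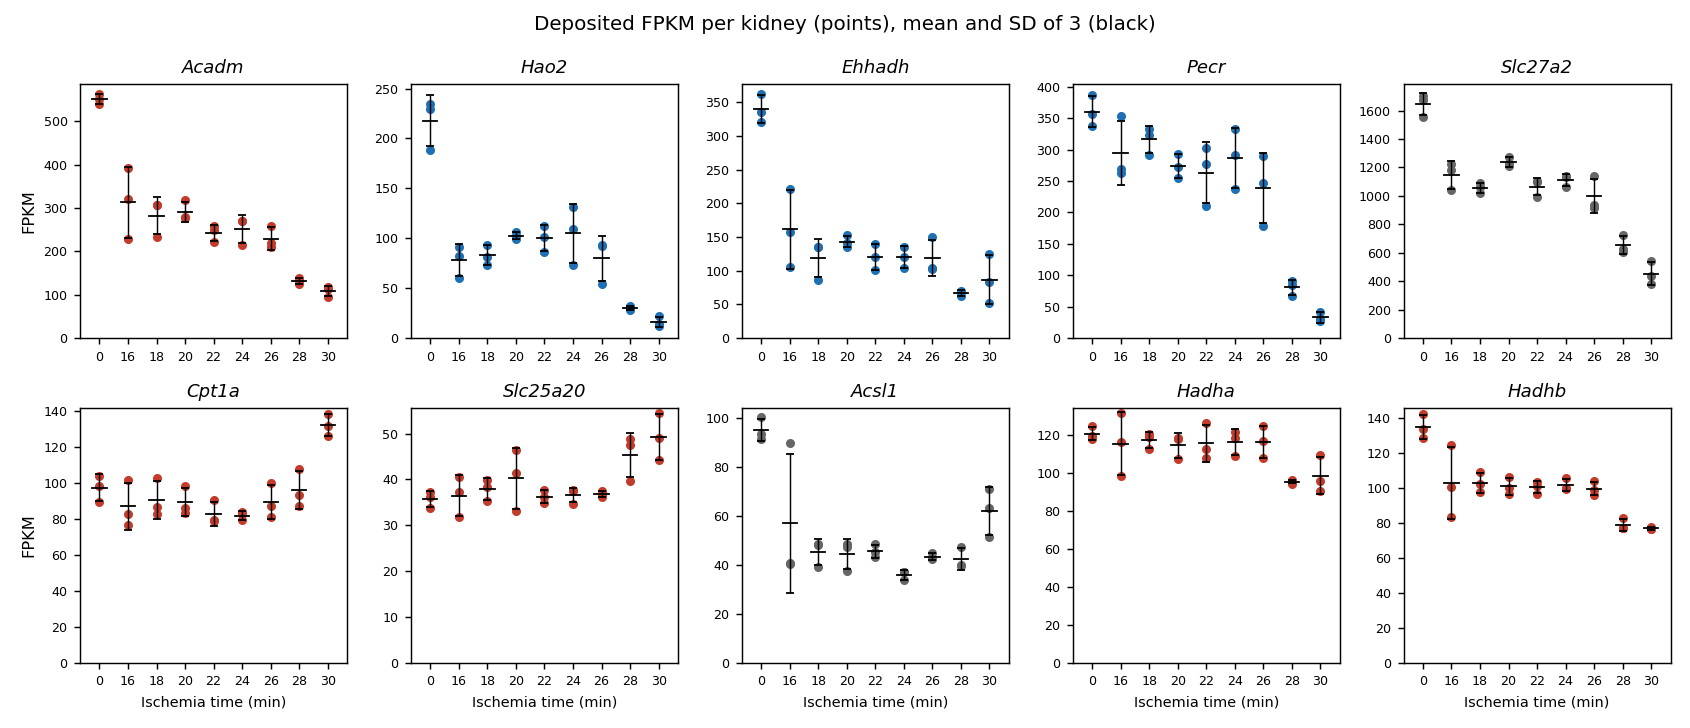
Deposited FPKM of 10 members against ischemia time in min, with 1 point per kidney, the mean of 3 as a black line and the SD as a bar, each y axis starting at 0. Acadm, Hao2, Ehhadh and Slc27a2 drop by 16 min and again by 28 min. Pecr is already lower at 26 min and drops at 28 min to 67.3 to 90.3 FPKM. Cpt1a and Slc25a20 are highest at 28 or 30 min, and Hadhb drops more than Hadha.

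Within 16 to 26 min no trend with ischemia time passed the test. From 16 to 26 min 0 of 44 members changed by limma, where 0.00% of all genes did, and 2 members and 1717 genes had an unadjusted p under 0.05. The slope over the 6 times passed for 0 members, where 0.0110% of all genes passed, with 3 members and 1514 genes at an unadjusted p under 0.05. The lowest member was Acadm, with a slope of -0.043 ± 0.013 log2 units per min (limma, adjusted p = 0.378). Without 16 min replicate 2 Acadm passed in both, with a log2 fold change of -0.68 from 16 to 26 min (limma, adjusted p = 0.0298). At 16 min Hao2 and Ehhadh were DEGs, where 0.979% of all genes were DEGs with lower levels, and at 26 min Acadm, Hao2, Ehhadh and Acsl1 were, where 1.61% were. The count of 19 members at 16 min depended on the kidneys: it was 10 without 16 min replicate 1, 8 without replicate 2, 30 without replicate 3 and 11 without 0 min replicate 2, and 0 when limma was fitted to the 0 and 16 min kidneys alone. At 20 min 17 became 11 without 0 min replicate 1 or 20 min replicate 2, and 10 without 0 min replicate 2.

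**Figure D3:**
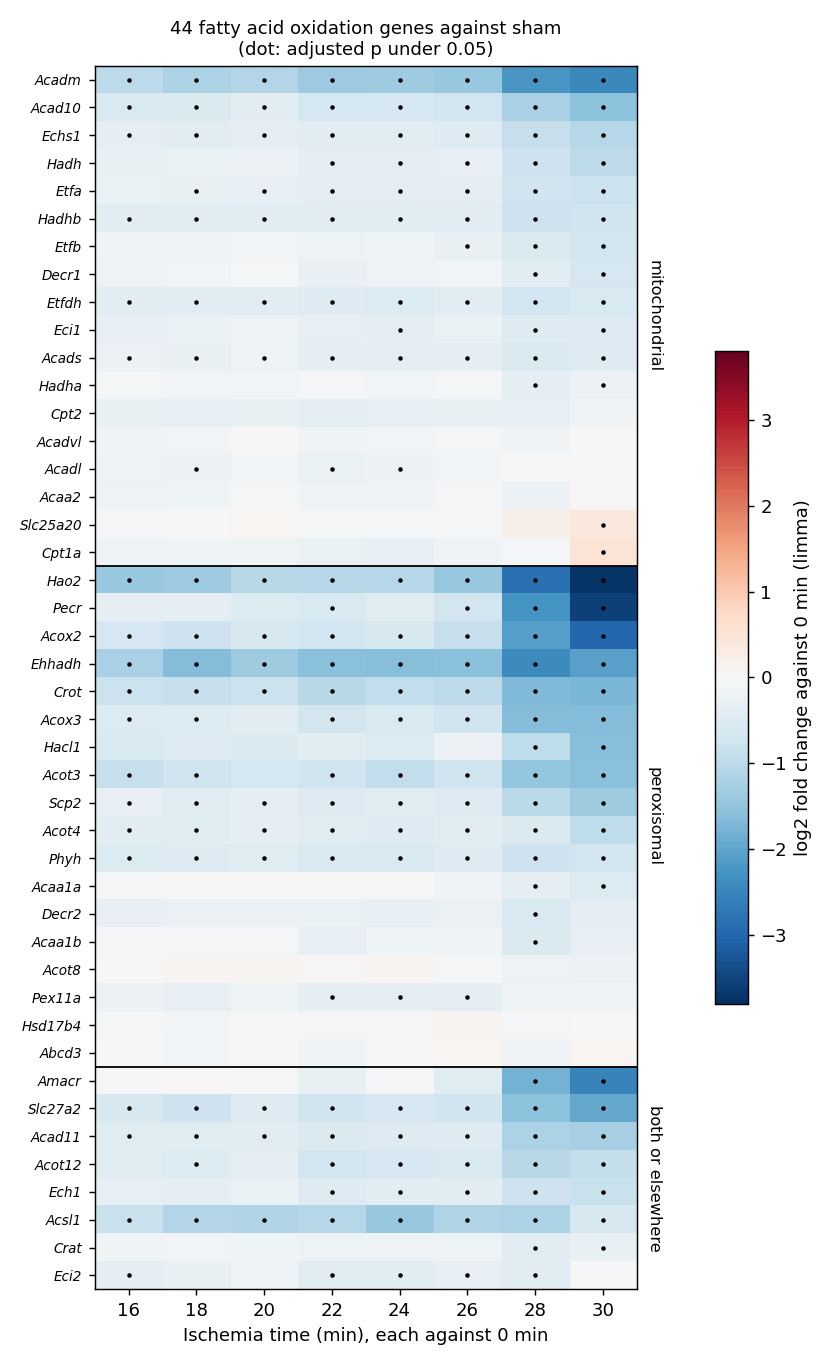
Log2 fold change of each of the 44 members against 0 min (colour, blue for lower) at the 8 ischemia times in min on the x axis, with a dot where the limma adjusted p was under 0.05. Members are grouped by compartment and ordered by their 30 min value, from -2.45 (Acadm) to 0.51 (Cpt1a) in mitochondria and from -3.71 (Hao2) to 0.06 (Abcd3) in peroxisomes.

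Between 26 and 28 min 21 members fell and 0 rose, where 8.52% of all genes fell. These were 9 of 18 mitochondrial, 8 of 18 peroxisomal and 4 of 8 other members, with median log2 fold changes over each compartment of -0.27, -0.48 and -0.40. The DEGs were Pecr (-1.57 ± 0.20, limma, adjusted p = 3.95e-05), Hao2 (-1.38 ± 0.23, limma, adjusted p = 0.00034), Amacr (-1.33 ± 0.20, limma, adjusted p = 0.000175) and Acox2 (-1.22 ± 0.21, limma, adjusted p = 0.000579), where 1.06% of all genes were DEGs with lower levels. Slc27a2 fell by 0.81 ± 0.10 (limma, adjusted p = 3.23e-05) and Acadm by 0.79 ± 0.16 (limma, adjusted p = 0.00169). In the same step 10 of 12 proximal tubule markers fell, with a median of -1.25, and 3 of 6 loop and distal tubule markers. At 28 min against 0 min 15 members were DEGs, where 4.21% of all genes were DEGs with lower levels. Leaving out 26 min replicate 2 gave 14 members, and of the members given by kidney, Ehhadh, Etfb and Crat lost their calls when certain single kidneys of 26 or 28 min were left out.

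**Figure D4:**
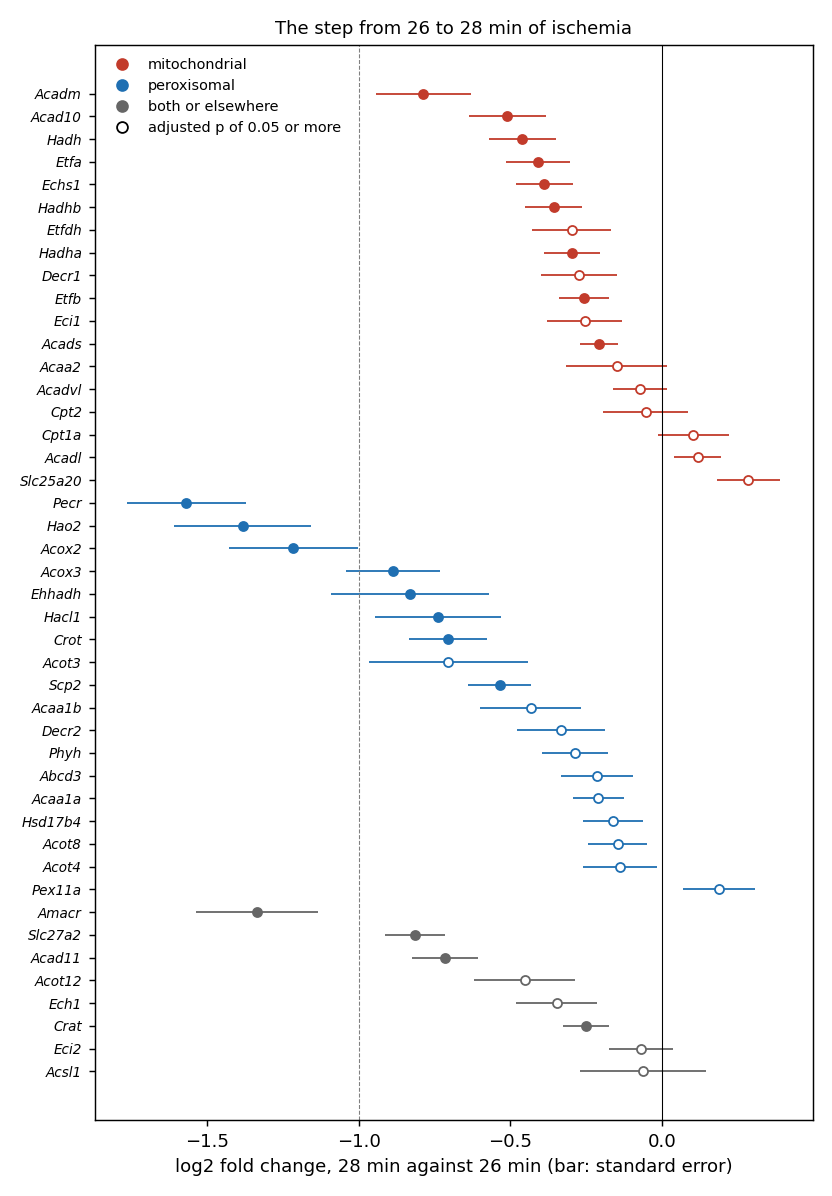
Log2 fold change of the 44 members from 26 to 28 min (x axis) with its standard error, 1 row per member, grouped by compartment. Filled points had a limma adjusted p under 0.05, and the dashed line marks -1, beyond which lie Pecr, Hao2, Acox2 and Amacr.

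Between 28 and 30 min most members did not change beyond the test. Of 44, 8 fell, where 6.77% of all genes did, and Cpt1a and Eci2 rose, where 6.47% did. Those that fell were the peroxisomal Pecr, Hao2, Acox2, Hacl1, Acot4 and Scp2 and the other members Amacr and Slc27a2, and 0 were mitochondrial. Pecr alone was a DEG, falling by 1.26 ± 0.20 (limma, adjusted p = 0.000623), where 0.649% of all genes were DEGs with lower levels. In this step 6 of 12 proximal tubule markers fell, with a median of -0.58, and 3 of 4 endothelial markers rose, and their part in these changes was not tested. These 10 calls depended on single kidneys: 5 passed without 28 min replicate 2, 3 without 28 min replicate 3, 2 without 30 min replicate 3, and 0 when limma was fitted to the 28 and 30 min kidneys alone.

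The other genes of the pathway were taken from lists, and their counts at 30 min stand beside the 25.4% of all genes that fell and the 26.9% that rose. Of 32 further fatty acid oxidation enzymes 13 fell and 9 rose at 30 min, with a median log2 fold change of -0.34, so that the share that rose was near that of all genes. Those with the largest changes were Cyp4a10, a fatty acid omega-hydroxylase (-2.07 ± 0.33, limma, adjusted p = 2.78e-05), the acetoacetyl-CoA thiolase Acat1 (-1.99 ± 0.11, limma, adjusted p = 7.08e-11), Acad12 (-1.98 ± 0.12, limma, adjusted p = 1.34e-10) and Acsl4, an acyl-CoA synthetase that prefers arachidonate, which rose by 1.94 ± 0.13 (limma, adjusted p = 2.74e-10). Of 8 enzymes of ketone body and propionyl-CoA metabolism 7 fell and 0 rose, where 25.4% of all genes fell, with a median of -1.42. Bdh1 and Oxct1, which use ketone bodies, fell by 2.54 ± 0.25 (limma, adjusted p = 5.74e-08) and 2.06 ± 0.17 (limma, adjusted p = 6.76e-09), and Mmut and Pcca, on the path from propionyl-CoA, fell by 1.68 ± 0.16 (limma, adjusted p = 2.5e-08) and 1.58 ± 0.11 (limma, adjusted p = 5.9e-10).

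Of 15 regulators 10 fell and 0 rose at 30 min, with a median of -0.43, where 25.4% of all genes fell and 26.9% rose. Ppargc1a, the coactivator PGC-1 alpha, fell from 16.8 ± 2.58 FPKM at 0 min to 8.06 ± 1.78 FPKM at 30 min (SD, n = 3), a log2 fold change of -1.08 ± 0.20 (limma, adjusted p = 0.000121). Hnf4a fell by 0.61 ± 0.10 (limma, adjusted p = 1.9e-05), Rxra by 0.53 ± 0.07 (limma, adjusted p = 3.3e-06), Esrrg by 0.66 ± 0.13 (limma, adjusted p = 0.000168) and Esrra by 0.45 ± 0.09 (limma, adjusted p = 0.000308). The coactivator Ppargc1b, the corepressor Ncor1, the malonyl-CoA enzymes Acaca, Acacb and Mlycd fell by 0.43, 0.37, 0.48, 0.78 and 0.31. Ppara itself had a log2 fold change of -0.14 ± 0.20 (limma, adjusted p = 0.622), Ppard -0.28 ± 0.15 (limma, adjusted p = 0.144), Pparg 0.02 ± 0.26 (limma, adjusted p = 0.962), Rxrb -0.05 ± 0.07 (limma, adjusted p = 0.61) and Nrip1 -0.20 ± 0.14 (limma, adjusted p = 0.23).

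Of 11 other known PPAR alpha targets 3 fell at 30 min, a share near the 25.4% of all genes, and 6 rose, where 26.9% of all genes did. Plin2, which coats lipid droplets, rose by 2.91 ± 0.24 (limma, adjusted p = 4.6e-09), Pdk4, which restrains pyruvate oxidation, by 1.77 ± 0.34 (limma, adjusted p = 0.000196) and Ucp2 by 1.70 ± 0.22 (limma, adjusted p = 1.7e-06), while the fatty acid receptor Cd36 fell by 1.68 ± 0.24 (limma, adjusted p = 5.37e-06). Plin2 was at 42.7, 51.7 and 57.5 FPKM at 0 min and between 264 and 653 FPKM at 30 min.

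Of 17 genes of peroxisome biogenesis 13 fell and 0 rose at 30 min, where 25.4% of all genes fell, with a median of -0.47, among them Pex11g (-1.07 ± 0.12, limma, adjusted p = 3.99e-07), Pex7 (-0.77 ± 0.08, limma, adjusted p = 2.18e-07) and Lonp2 (-0.61 ± 0.08, limma, adjusted p = 9.43e-07). Of 13 other peroxisomal enzymes 10 fell and 2 rose, where 25.4% of all genes fell and 26.9% rose, with a median of -0.90. Among them Pipox, which oxidizes pipecolic acid, fell by 1.68 ± 0.14 (limma, adjusted p = 7.83e-09), Agps of ether lipid synthesis by 1.30 ± 0.16 (limma, adjusted p = 1.19e-06), catalase (Cat) by 1.26 ± 0.12 (limma, adjusted p = 3.48e-08) and the D-amino acid oxidase Dao by 1.19 ± 0.11 (limma, adjusted p = 2.43e-08).

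PPAR alpha with RXR is known to bind a direct repeat of a hexamer with 1 base between the copies. The letters AGGTCANAGGTCA were searched on both strands, with up to 2 mismatches among the 12 fixed letters and no other motif, in RefSeq windows of 250 bases before to 50 after each gene's start (GRCm38.p6). Of the 44 members 39 were matched to such windows, and 6 of these, 15.4%, held a match, namely Acot12, Acot4, Acox2, Echs1, Etfa and Slc25a20, against 4.4% of 27025 genes with a window. With 0 mismatches 0 members matched. The stretch before Etfa is shown as an example, at chr9:55512284-55512344 on the minus strand. The match, in capitals, has 2 mismatches and lies on the opposite strand.
Etfa: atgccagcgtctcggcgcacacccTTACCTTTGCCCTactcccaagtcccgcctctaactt
At 30 min 31 of all 44 members fell and 2 rose, where 25.4% of all genes fell and 26.9% rose. Of the 6 members with a match, Slc25a20 rose and the other 5 fell. Whether a match goes with the fall was not tested. A match of letters is a description of these windows and not of binding.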

How the data were processed

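The labels give each mouse an ischemia time, which set its group of 3, and no batch. The authors deposited linear FPKM values, 1 for each symbol in each kidney, so that the quantile normalization and log2 transformation of the study's methods are not in them. The submitters' processing notes name Bowtie2, RSEM, DESeq2 and GRCm38.p6 without versions or roles. Counts were not used here, depth is unknown, and precision rests on 3 replicates per group, whose number limits it. FPKM is relative to all RNA of a kidney, so a rise of abundant genes lowers the rest.

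Values were taken as log2(FPKM + 1), quantile normalized over the 27 kidneys and fitted with 1 mean per group in limma 3.58.1 (R 4.3.3) over all genes above 0 FPKM in at least 3 kidneys. Passing needed a Benjamini-Hochberg adjusted p under 0.05, and DEGs also an absolute log2 fold change above 1. The step was tested on simulated data of the same design. A ratio of 2 genes was compared by an exact permutation test in scipy 1.17.1. Sequences and positions came from RefSeq and GENCODE vM21, and 50-base stretches shared between genes were counted in GENCODE transcripts. Plots used matplotlib 3.10.9 and Python 3.11.15.

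The members, their compartments, the gene lists and the alternatives were chosen with earlier results of these data known, and the lists hold textbook genes that may have been picked for that reason. Values of every sham, 28 min and 30 min kidney are given for the 3 members of each compartment highest at 0 min, the 4 that fell most and the 2 that fell least or rose most at 30 min, and a range for the 18 kidneys between. Acsl1, Hadha and Hadhb were chosen for values by kidney after their values were seen. Of the other lists, all regulators and up to 4 genes with the largest change per list were named, and some items the rule names are not reported here.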

Additional observations from a re-analysis of the deposited data

Results flagged for a closer look

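At 2 members the tested change from 28 to 30 min had the opposite sign to their log2 fold change from 0 to 28 min. The earlier change passed the test for Eci2 but not for Cpt1a. Cpt1a had a log2 fold change of -0.04 ± 0.12 (SE) at 28 min against 0 min (limma, adjusted p = 0.824) and rose by 0.548 from 28 to 30 min (limma, adjusted p = 0.00501). Eci2 fell by 0.39 ± 0.10 at 28 min (limma, adjusted p = 0.00446) and rose by 0.329 from 28 to 30 min (limma, adjusted p = 0.0425). Apart from the stricter rule for DEGs, the Cpt1a call was lost only when limma was fitted to the 28 and 30 min kidneys alone (adjusted p = 0.0886). The Eci2 call was lost under 10 other alternatives, among them no quantile normalization (adjusted p = 0.0794). Groups of 3 kidneys were not searched for outlying values.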

How the results depend on the processing

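The counts of members that fell or rose were within 1.5 times of those reported, in each of the 12 comparisons, with a pseudocount of 0.1 FPKM, without quantile normalization, with FPKM scaled to a constant sum, with a filter of 1 FPKM in 3 kidneys or none, with an intensity trend in limma, and without the 4 kidneys highest in adipocyte markers, an alternative chosen after the data were seen. Scaling moved the median of all genes by less than 0.1. Under the rule for DEGs the counts were 2, 4, 4, 5, 4, 4, 15 and 15 at 16, 18, 20, 22, 24, 26, 28 and 30 min against 0 min, 4 from 26 to 28 min and 1 from 28 to 30 min. Fitted to the compared groups alone, 0 members passed at 16 min and 0 from 28 to 30 min; the cause was not tested. Leaving out 1 kidney gave 8 to 30 at 16 min, 14 to 23 at 18 min, 10 to 15 at 20 min, 20 to 26 at 22 min, 19 to 23 at 24 min, 18 to 23 at 26 min, 33 to 35 at 28 min, 31 to 35 at 30 min, 14 to 22 from 26 to 28 min, 2 to 12 from 28 to 30 min, 0 to 1 from 16 to 26 min and 0 to 1 for the slope.

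The labels give same-numbered kidneys only a number in common. The median correlation of deviations from group means was -0.0087 for same-numbered and -0.0100 for different-numbered kidneys. Of 108 same-numbered pairs 25 had a correlation over 0.1, the highest 0.48, and 10 of 27 kidneys correlated best with their own number. These values do not show whether some kidneys shared a batch. With the replicate number as a block 20, 20, 17, 26, 25, 26, 34 and 35 members passed at the 8 times, 21 from 26 to 28 min and 9 from 28 to 30 min.

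Signs turned only where no call was made. Without quantile normalization the log2 fold change at 16 min was 0.024 for Slc25a20 and 0.018 for Abcd3, at 26 min 0.043 for Slc25a20, and from 28 to 30 min -0.04 for Phyh and -0.009 for Hsd17b4. With constant sums it was 0.033, 0.026, 0.073 and -0.025 for the first 4 of these. With single kidneys left out the ranges at 16 min were -0.142 to 0.107 for Abcd3, -0.251 to 0.119 for Amacr and -0.142 to 0.06 for Slc25a20. At 30 min they were -0.125 to 0.121 for Hsd17b4, -0.121 to 0.048 for Eci2 and -0.067 to 0.141 for Abcd3. From 28 to 30 min they were -0.209 to 0.04 for Ech1, -0.155 to 0.034 for Acad11, -0.038 to 0.116 for Phyh, -0.06 to 0.186 for Hsd17b4 and -0.035 to 0.35 for Acot12. Without the 4 kidneys high in adipocyte markers Hsd17b4 was at 0.121 and Eci2 at 0.048 at 30 min, and Ech1 at 0.04 and Acad11 at 0.034 from 28 to 30 min. For single members, 844 of 945 values under the alternatives that left out no replicate of the groups compared, 97 of 105 without the 4 kidneys high in adipocyte markers and 550 of 630 without 1 kidney kept the direction and the side of the threshold.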
